A study of Mus musculus with 16 samples.

Results

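The genes described here are 33 genes of protein folding and proteotoxic stress in mouse liver, among 15544 genes in the table. They were taken by name: 21 genes of endoplasmic reticulum (ER) folding and the unfolded protein response, 5 genes of the integrated stress response and 7 cytosolic heat shock genes. Liver RNA was sequenced in bulk in 16 libraries from female mice aged 27 weeks, with 4 libraries in each of 4 groups. The labels do not state that each library came from a separate mouse, and p-values measure only the spread between these libraries. Controls were Esr1 fl/fl, with a floxed gene for oestrogen receptor alpha. Mutants had this allele together with a Cre recombinase expressed from Nkx2-1, a driver active in part of the hypothalamus and not in hepatocytes. Both genotypes were studied on chow and after 17 weeks of HFD, a diet rich in fat. The floxed allele was shared by all 4 groups, and no group without it was measured.

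Values are a normalised level per gene on the TPM scale, which is adjusted for transcript length, so that levels can be compared between genes. The sequencing depth of each library is unknown. A gene was tested if it reached 1 in at least 4 libraries, which left 31 of the 33 genes and 12704 genes in all. Hspa1a reached 1 in 2 libraries and Asns in 3, and both are given by level only. Differences are on the log2(value + 1) scale, with the standard error (SE) and a p-value from limma, a linear model fitted across all genes, adjusted by the Benjamini-Hochberg method over all tested genes with a threshold of 0.05. In bulk liver, fewer cells of a type and less RNA per cell cannot be told apart.

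Column totals ranged from 905897 to 1119700, and between 11834 and 12443 genes reached 1 in a library. All 6 hepatocyte markers were present, with a summed level between 57047 and 99170 in every library. Replicates 1 and 2 of the mutants on chow stood apart: 5 neutrophil markers summed to 2649 and 5763 there and to between 1.82 and 134 in the other 14 libraries, and 6 plasma and B cell markers summed to 278 and 680.2 against 18.8 to 113. Esr1 itself averaged 11.7 ± 3.45 (SD, n = 4) in controls and 13.6 ± 5.54 in mutants on chow, and 7.21 ± 0.825 and 17.7 ± 7.603 on HFD. The liver is not where the receptor was removed, so these levels do not check the genotype labels. Library titles carry numbers, and within each diet these form a low and a high series that the genotypes share unequally. On HFD the low series holds control replicates 1, 2 and 3 and mutant replicate 1, and the high series holds control replicate 4 and mutant replicates 2, 3 and 4. On chow the low series holds control replicates 1 and 2 and mutant replicate 1, and the high series holds the other 5 libraries. Low and high are relative to the diet, and both chow series have title numbers between those of the HFD low and HFD high series. The labels do not say what the numbers stand for.

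Hepatocytes secrete most plasma proteins and fold them in the ER, where chaperones, disulphide isomerases and lectins assist. When unfolded proteins accumulate there, the sensors IRE1, ATF6 and PERK switch on the unfolded protein response: XBP1 and ATF6 raise chaperones and degradation factors, and PERK, shared with the integrated stress response, favours translation of ATF4, which drives DDIT3, TRIB3, CHAC1 and ASNS. In the cytosol, heat shock factors raise a separate set of chaperones of the HSP70, HSP90 and HSP40 families.

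The ER chaperones and lectins were among the more abundant of the 33 genes. Averaged over the 16 libraries, Calr, a calcium-binding lectin chaperone, stood at 391.9, Hsp90b1, the ER form of HSP90, at 347, and Hspa5, the ER form of HSP70 also called BiP, at 263. Canx, the membrane-bound partner of Calr, averaged 147. The disulphide isomerases Pdia3, Pdia6 and Pdia4 averaged 166, 132 and 107. Sec61b, a subunit of the channel through which proteins enter the ER, averaged 151, and the transcription factor gene Xbp1 averaged 137. At the lower end stood Creld2 at 23.1, Sdf2l1, a partner of BiP and its HSP40 helpers, at 17.6 and the sensor gene Atf6 at 9.90.

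A promoter window from 250 bases before to 50 after the start site was found in the RefSeq table (GRCm38.p6) for 28 of the 33 genes. The ER stress response element, CCAAT and CCACG separated by 9 bases on either strand, is the site read by ATF6 and XBP1 together with NF-Y. It occurred in the windows of 8 of the 28 genes (28.6%), against 0.137% of 27025 genes with a window, and all 8 belong to the ER group. The ER genes were listed by name as genes of this response, so the contrast with all genes is not independent support. The stretches that hold the element are shown, because it is the best known site of the unfolded protein response. They are given 5′ to 3′ on the strand of the gene with the element in capitals. An element on the opposite strand reads CGTGG, 9 bases and ATTGG. The Hspa5 element lies inside an annotated GENCODE exon, and a short site is given for it.
Hspa5, chr2:34772020-34772048, plus strand: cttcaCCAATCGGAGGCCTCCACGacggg
Hsp90b1, chr10:86705510-86705694, minus strand: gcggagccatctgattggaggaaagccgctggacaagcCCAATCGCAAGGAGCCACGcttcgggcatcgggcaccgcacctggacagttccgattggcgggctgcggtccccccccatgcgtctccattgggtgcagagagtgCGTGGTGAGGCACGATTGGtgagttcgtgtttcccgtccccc
Pdia6, chr12:17266431-17266544, plus strand: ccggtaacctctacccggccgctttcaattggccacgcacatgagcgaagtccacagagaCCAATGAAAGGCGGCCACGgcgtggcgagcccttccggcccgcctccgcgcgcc
Calr, chr8:84847015-84847153, minus strand: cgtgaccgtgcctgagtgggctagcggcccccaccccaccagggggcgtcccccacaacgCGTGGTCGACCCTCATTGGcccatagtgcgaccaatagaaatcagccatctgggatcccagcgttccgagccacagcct
Canx, chr11:50325740-50325878, minus strand: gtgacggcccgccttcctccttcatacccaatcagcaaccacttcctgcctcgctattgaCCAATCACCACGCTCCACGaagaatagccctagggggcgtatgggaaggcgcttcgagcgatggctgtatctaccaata
Dnajc3, chr14:118937767-118937905, plus strand: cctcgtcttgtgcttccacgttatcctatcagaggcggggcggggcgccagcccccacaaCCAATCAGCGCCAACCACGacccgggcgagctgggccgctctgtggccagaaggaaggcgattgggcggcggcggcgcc
Creld2, chr15:88819460-88819598, plus strand: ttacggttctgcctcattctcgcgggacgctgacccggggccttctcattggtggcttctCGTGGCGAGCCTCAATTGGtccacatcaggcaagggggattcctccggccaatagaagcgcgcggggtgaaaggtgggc
Syvn1, chr19:6046472-6046575, plus strand: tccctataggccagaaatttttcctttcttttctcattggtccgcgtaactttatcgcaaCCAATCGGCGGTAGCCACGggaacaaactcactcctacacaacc

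These elements lay between positions -212 and -26 from the RefSeq start sites, and Hsp90b1 held 2 of them. The windows of Creld2 and Calr held the element on the opposite strand only, and that of Hsp90b1 held it on both strands. A second site, the unfolded protein response element TGACGTGG, was found in 0 of the 28 windows and in 0.714% of all genes. A match is a run of letters and does not show that a factor binds there.

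The 8 genes that held the element ranged from steady to variable. Their highest library exceeded their lowest by between 1.49-fold (Canx) and 5.07-fold (Creld2), with a median of 2.08-fold, against a median of 1.94-fold for the 10 ER genes whose window lacked it. Canx, Dnajc3 and Hsp90b1 were the steadiest of the 8, and Creld2, Hspa5 and Syvn1 the most variable. For Manf, Hyou1, Atf6, Hspa8 and Hsp90aa1 the table used gave no window.

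Variation between libraries was wide and was shared by several ER genes. Manf, a secreted ER stress protein, was at 133, 158, 101 and 52.4 in control replicates 1 to 4 on chow and at 207, 124, 68.4 and 75.3 in the mutants. On HFD it was at 203, 171, 126 and 61.2 in controls and at 138, 75.3, 48.9 and 70.7 in mutants. Its highest library exceeded its lowest by 4.23-fold. The highest library was mutant replicate 1 on chow and the lowest mutant replicate 3 on HFD.

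Creld2, a disulphide isomerase-like ER protein, followed the same libraries. It was at 33.9, 27.0, 22.4 and 8.76 in controls on chow, at 35.4, 26.2, 15.2 and 13.4 in mutants on chow, at 44.4, 36.4, 26.8 and 11.6 in controls on HFD and at 26.1, 17.4, 12.5 and 12.7 in mutants on HFD. Replicate 1 was the highest of its group in all 4 groups. For Hyou1, a large HSP70-like protein of the ER, the range over libraries was 17.5 to 62.8, and for Sdf2l1 it was 8.76 to 44.5.

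The pooled SD within groups was 0.296 on the log2 scale for the median ER gene, against 0.260 for the median of all tested genes. It reached 0.70 for Creld2 and Manf, 0.65 for Sdf2l1 and 0.58 for Hyou1, and it was 0.14 for Hsp90b1 and 0.15 for Canx. Mutant replicates 1 and 2 on chow each had 20 of the 21 ER genes above the gene's own mean, and control replicate 1 on HFD had 17. The opposite end was mutant replicate 4 on HFD, with 20 of 21 below the mean, and control replicate 4 on chow, with 19 below. Mutant replicates 1 and 2 on chow are the libraries with the high neutrophil, plasma and B cell markers, and the part of these cells in the ER levels was not tested.

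**Figure D1:**
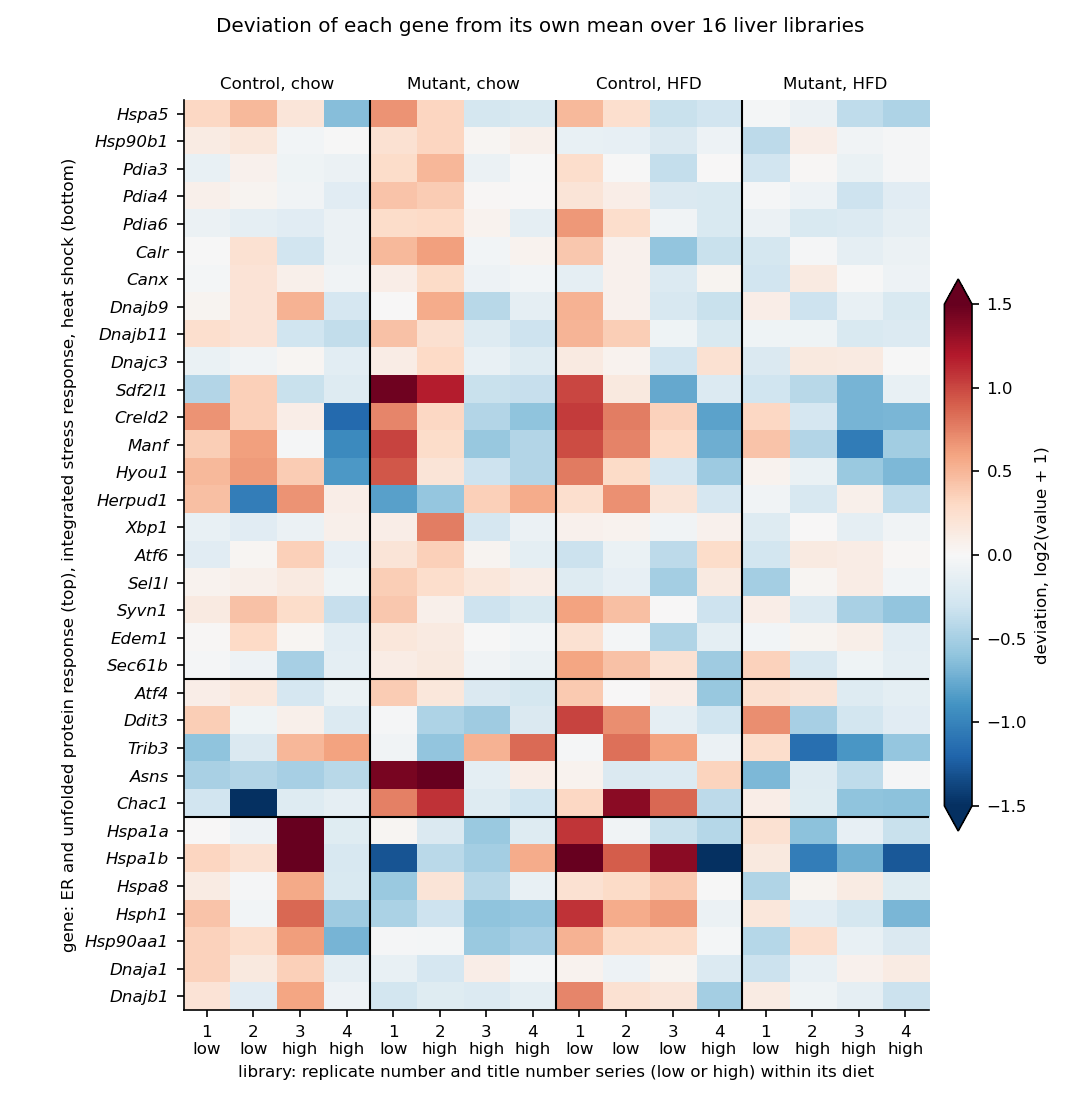
Deviation of each of the 33 genes (vertical axis, in 3 blocks) from its own mean over the 16 libraries (horizontal axis, by group, replicate and title number series), in log2(value + 1); red is above and blue below the mean, and colours stop at the ends of the bar. ER genes are red in mutant replicates 1 and 2 on chow and in control replicate 1 on HFD, and the heat shock block is reddest in control replicate 3 on chow and control replicate 1 on HFD.

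The first question was whether the genotype changed these genes on chow. No gene of the 31 passed the adjusted threshold of limma, where 0.0236% of all tested genes did, and 2 of the 31 had an unadjusted p under 0.05, where 6.08% of all genes did. In 0 of the 31 did the groups not overlap, against 3.05% of all genes. The difference had opposite signs in the ER and the cytosolic genes. Of the 21 ER genes, 17 were higher in mutants, with a median log2 difference of 0.10, and all 6 tested heat shock genes were lower, with a median of -0.38. Of all tested genes, 6941 of 12704 were higher in mutants, and the median over all of them was 0.02.

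Hsph1, an HSP110-type exchange factor that helps HSP70 to release its client, had the smallest p. It was at 40.8, 29.3, 55.4 and 20.4 in controls on chow and at 21.4, 24.1, 19.4 and 19.8 in mutants. The 4 mutants lay close together and only the lowest control fell within their range. The log2 difference was -0.67 (SE 0.28), with an adjusted p of 0.804 in limma.

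Chac1, a glutathione-degrading enzyme driven by ATF4, was at 1.95, 0.222, 2.16 and 2.29 in controls and at 5.12, 6.70, 2.16 and 1.93 in mutants. Mutant replicates 1 and 2 stood above every control, and the other 2 did not. The log2 difference was 0.89 (SE 0.41), with an adjusted p of 0.810 in limma. Without mutant replicate 2 it was 0.64, and without replicates 1 and 2, the libraries with high neutrophil markers, 0.30. Without control replicate 2, whose value of 0.222 was the lowest, it was 0.55. The third gene by p was Dnaja1, an HSP40 co-chaperone, with a log2 difference of -0.26 (SE 0.13, adjusted p of 0.838 in limma).

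The direction of the ER genes on chow rested on mutant replicates 1 and 2, which also have high neutrophil, plasma and B cell markers. Each had 20 of the 21 ER genes above the gene's own mean, so leaving both out would weaken the direction whatever the cause. The part of these cells was not tested. Without mutant replicate 2, 11 of 21 ER genes were higher and 10 lower in mutants, with a median of 0.01. Without mutant replicates 1 and 2, a fit added after the values had been seen, 7 were higher and 14 lower, with a median of -0.08. Xbp1, which encodes a main transcription factor of the unfolded protein response, was at 146, 231.04, 114 and 127 in mutants against 126, 121, 127 and 143 in controls, a log2 difference of 0.20 that became -0.01 (SE 0.10) without replicate 2. All 6 heat shock genes were lower in mutants in each of these fits, with medians of -0.49 and -0.48.

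On HFD the second comparison of genotypes gave 0 of 31 genes past the adjusted threshold of limma, where 0.0157% of all genes passed, and 2 of 31 with an unadjusted p under 0.05, where 8.60% did. Again no gene separated the groups without overlap, against 2.69% of all genes. Of the 31 genes, 26 were lower in mutants and 5 higher, with a median log2 difference of -0.27 against 0.02 for all tested genes. By group, 17 of 21 ER genes (median -0.14), 3 of 4 integrated stress response genes (median -0.62) and 6 of 6 heat shock genes (median -0.37) were lower. Of all tested genes, 5984 of 12704 were lower.

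Hsph1 again had the smallest p. It was at 64.9, 44.6, 47.4 and 28.2 in controls on HFD and at 34.0, 26.7, 24.9 and 18.4 in mutants. Control replicate 4 lay within the mutant range and the other 3 controls lay above it. The log2 difference was -0.78 (SE 0.28), with an adjusted p of 0.544 in limma.

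Trib3, a pseudokinase induced by ATF4 and DDIT3, was at 5.79, 11.2, 9.46 and 5.47 in controls on HFD and at 7.28, 2.16, 2.745 and 3.59 in mutants. Mutant replicate 1, the only mutant of the low series, was the one mutant within the control range. The log2 difference was -0.91 (SE 0.37), with an adjusted p of 0.560 in limma. Syvn1, the ubiquitin ligase of ER-associated degradation, had the third smallest p, with a log2 difference of -0.48 (SE 0.23, adjusted p of 0.577 in limma).

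These differences on HFD moved with the number series. With the series as a term in the fit, the log2 difference of Hsph1 was -0.43 and that of Trib3 -0.49. In the low series 20 of 21 ER genes were lower in the single mutant than in the mean of the 3 controls, and in the high series 9 of 21 were lower in the 3 mutants than in the single control. All 6 heat shock genes were lower in the mutant of the low series, and 1 of 6, Hsph1, in the mutants of the high series. When libraries were weighted by how well they fitted their group, 10 of the 31 genes passed the threshold on HFD, where 30.9% of all tested genes did, so that the share among these genes was near the background. The lowest weights fell on control replicate 4 (0.228) and mutant replicate 1 (0.329) on HFD, the libraries that sit in the series held mostly by the other genotype. In each HFD series 1 of the genotypes is a single library, so the values within a series have no replicate check for it.

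**Figure D2:**
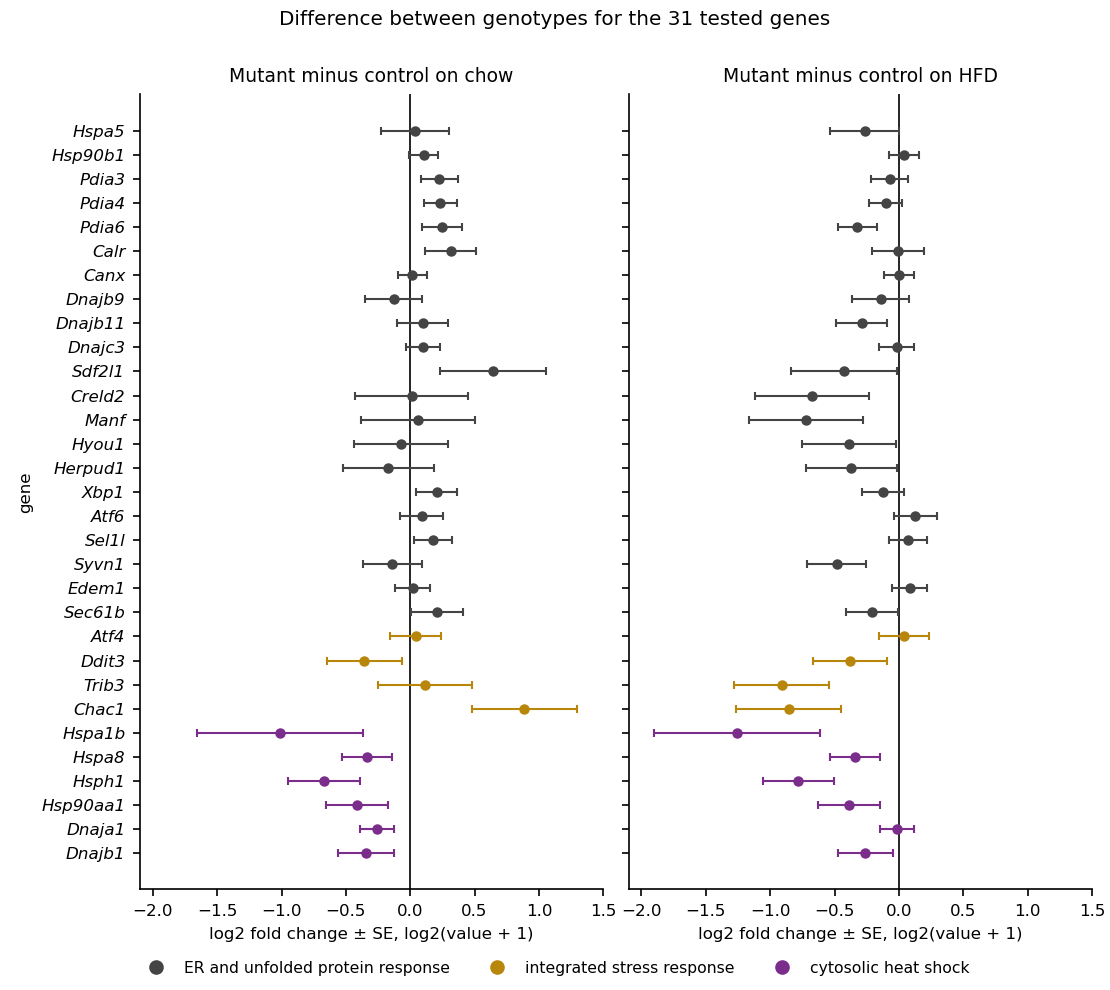
Log2 difference between mutants and controls (horizontal axis, log2(value + 1) scale) for each of the 31 tested genes (vertical axis) on chow (left) and HFD (right); points are limma estimates from 4 libraries a group and bars are ± 1 SE. The heat shock genes lie at or below 0 on both diets, from -1.01 to -0.26 on chow and from -1.26 to -0.02 on HFD.

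Among the heat shock genes, Hspa8, the constitutive HSP70, was the most abundant of all 33 genes, with a mean of 624. It was at 666, 603, 909 and 522 in controls and at 414, 698, 457 and 564 in mutants on chow, and at 715, 747, 805 and 608 in controls and 447, 630.4, 665 and 539 in mutants on HFD. Group means were lower in mutants on both diets and the groups overlapped on both. The log2 difference was -0.34 on chow and -0.34 on HFD.

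Hsp90aa1, the inducible cytosolic HSP90, averaged 100.3 ± 34.1 (SD, n = 4) in controls and 72.2 ± 14.6 in mutants on chow, and 105 ± 16.3 and 80.3 ± 16.7 on HFD. Dnajb1, the HSP40 induced with HSP70, averaged 13.1 ± 3.51 and 9.89 ± 0.405 on chow, and 13.6 ± 4.93 and 10.8 ± 1.53 on HFD. Neither gene separated the genotypes on either diet. Transcripts of Hspa8 and Hsp90aa1 share 44.8% and 51.5% of their 31-base words with transcripts of other genes. For Dnaja1 and the ER gene Sec61b the shares were 22.6% and 23.5%. The levels of these genes therefore depend in part on how reads were divided.

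The strictly inducible HSP70 genes are near-identical neighbours, Hspa1b at chr17:34956436-34959238 and Hspa1a at chr17:34969190-34972156 on the minus strand (GRCm38). Of the 31-base words of Hspa1a, 63.8% occur in Hspa1b, so the split between them is uncertain and their sum is the safer quantity. The summed level was 12.3, 11.4, 46.8 and 8.01 in controls and 3.79, 7.06, 6.23 and 14.4 in mutants on chow, and 30.9, 18.7, 25.4 and 2.45 in controls and 11.2, 4.02, 5.66 and 3.51 in mutants on HFD. Control replicate 3 on chow was far above its group, and control replicate 4 on HFD was below every mutant on that diet. Means of the sum were 19.6 ± 18.2 (SD, n = 4) in controls and 7.87 ± 4.58 in mutants on chow, and 19.3 ± 12.3 and 6.09 ± 3.52 on HFD. Hspa1b alone had the widest spread of the 33 genes, with an SD of 1.03 on the log2 scale.

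**Figure D3:**
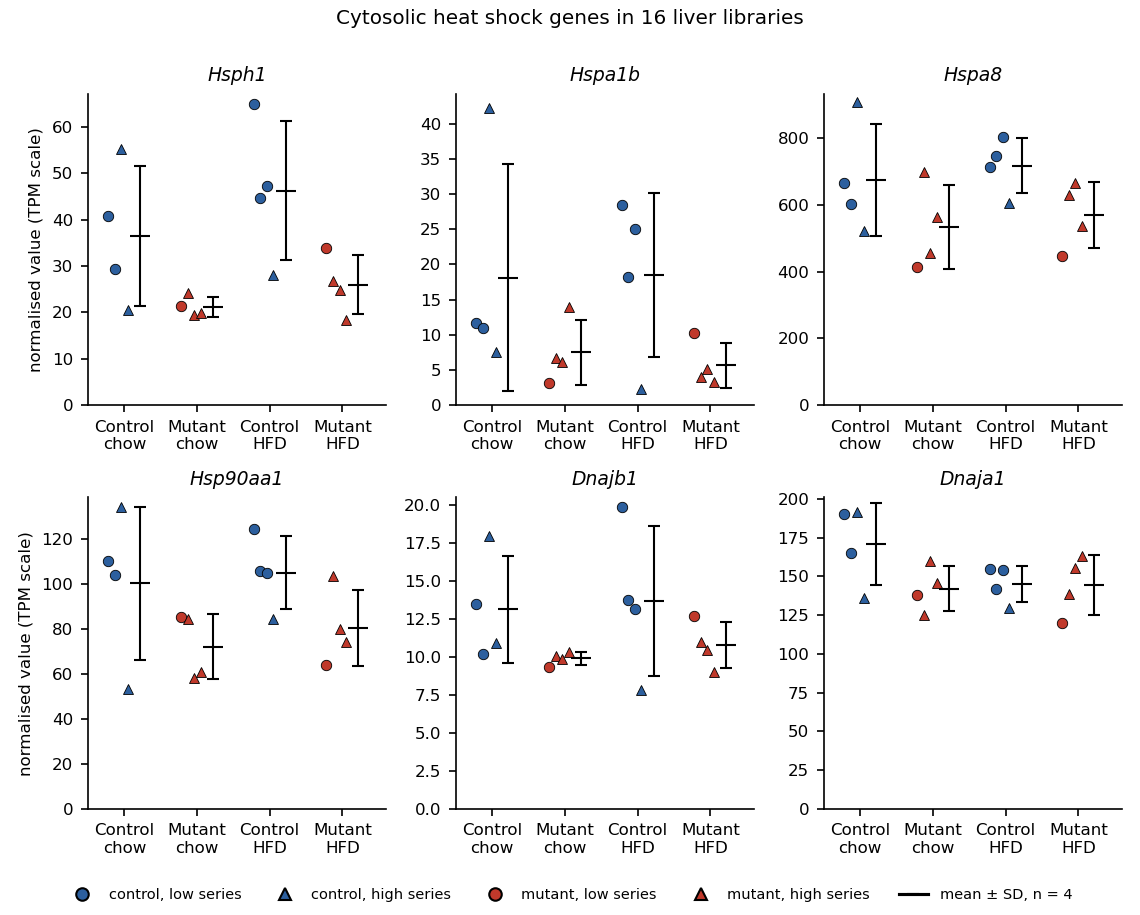
Normalised value on the TPM scale (vertical axes, from 0) of 6 cytosolic heat shock genes in each library of the 4 groups (horizontal axes); points are libraries, circles the low and triangles the high title number series, and bars are the mean ± SD of 4 libraries. Hsph1 sits between 19.4 and 24.1 in mutants on chow, and control replicate 4 on HFD is the lowest control of its diet for all 6 genes.

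The genotypes were also compared over both diets together, a comparison added after the values had been seen. It gave 0 of the 31 genes past the adjusted threshold of limma, where 0.0630% of all genes passed, and 4 with an unadjusted p under 0.05, where 8.98% did. All 4 were heat shock genes and all were lower in mutants. They were Hsph1 (-0.73, SE 0.20, adjusted p of 0.2704 in limma), Hspa1b (-1.14, SE 0.46), Hspa8 (-0.34, SE 0.14) and Hsp90aa1 (-0.40, SE 0.17). The 21 ER genes split into 11 higher and 10 lower, with a median of 0.01. This average joins opposite directions, as 17 of 21 were higher on chow and 17 of 21 lower on HFD. With the series as a term, 3 of the 31 genes had an unadjusted p under 0.05, where 8.26% of all genes did: Hsph1 (-0.55, SE 0.19) and Hspa8 (-0.39, SE 0.15) were lower and Sec61b (0.21, SE 0.09) was higher. In that fit Hspa1b was at -0.74 (SE 0.35) and Hsp90aa1 at -0.36 (SE 0.19), all 6 heat shock genes were lower, and 15 ER genes were higher and 6 lower, with a median of 0.05.

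Among 25 heat shock genes outside the 33, 1 passed in that comparison. The comparison was added after the values had been seen, and the list was chosen with earlier results of these data known. The call is therefore not an independent test. Hspb1, the small heat shock protein HSP27, was at 27.9, 14.8, 20.3 and 11.51 in controls and at 4.65, 6.18, 6.42 and 5.74 in mutants on chow. On HFD it was at 77.1, 51.1, 50.4 and 20.8 in controls and at 16.3, 6.15, 9.36 and 9.10 in mutants. Every mutant lay below every control of its diet, and so by necessity within each series. The groups did not overlap in 3.05% of all genes on chow and in 2.69% on HFD. Over both diets the log2 difference was -1.80 (SE 0.25), with an adjusted p of 0.00581 in limma, and with the series as a term it was -1.49 (adjusted p of 0.00994). Within single diets it did not pass, with an adjusted p of 0.403 on chow and 0.0812 on HFD in limma, and on HFD it passed without control replicate 4 (-2.48, adjusted p of 0.00292), as did 0.0395% of all genes. Between the HFD series it differed as well, by -1.19 (SE 0.28, adjusted p of 0.00828). It was 1 of 25 other heat shock genes tested, of which 18 were lower and 7 higher in mutants.

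The diet was compared within each genotype next. In controls, 0 of 31 genes passed the adjusted threshold of limma, as did 0% of all genes, and 1 had an unadjusted p under 0.05, where 12.9% of all genes did. That gene was Chac1. Against the chow controls given above, it was at 3.48, 8.22, 5.54 and 1.77 in controls on HFD, so that 3 of the 4 HFD libraries lay above every chow library and replicate 4 did not. The log2 difference was 1.08 (SE 0.41), with an adjusted p of 0.299 in limma. Without control replicate 2 on chow, at 0.222, it was 0.74. Hsp90b1 was the only one of the 31 whose groups did not overlap, against 6.36% of all genes: it was at 375, 387, 336 and 343 on chow and at 319, 315.97, 298 and 326.1 on HFD.

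The next genes by p in controls were Pdia6, with a log2 difference of 0.28 (SE 0.15, adjusted p of 0.460 in limma), and Sec61b, with 0.37 (SE 0.20, adjusted p of 0.460). Sec61b was at 146, 140.3, 104 and 133 in controls on chow and at 223, 201, 173 and 102 on HFD. The 3 low-series libraries on HFD lay above all chow controls and the high-series library lay below them. Without that library, control replicate 4 on HFD, Sec61b was higher by 0.60 and passed the threshold of limma with an adjusted p of 0.0331, where 7.33% of all genes passed.

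In mutants the ER genes leaned to lower levels on HFD. All 21 had a negative log2 difference, with a median of -0.27, although 0 of 31 genes passed the adjusted threshold of limma, as did 0% of all genes. Of all tested genes, 6641 of 12704 had a negative difference, with a median of -0.01. An unadjusted p under 0.05 was found in 3 of 31, where 6.86% of all genes had one. They were the disulphide isomerase Pdia4 (-0.35, SE 0.13, adjusted p of 0.639 in limma), Sel1l, the adaptor of SYVN1 in ER-associated degradation (-0.33, SE 0.15, adjusted p of 0.722), and Hsp90b1 (-0.25, SE 0.11, adjusted p of 0.722).

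Pdia4 was at 142, 137, 106 and 106 in mutants on chow and at 104, 100.03, 85.1 and 93.7 on HFD. Sel1l was at 45.4, 42.3, 39.4 and 38.1 on chow and at 24.3, 35.7, 38.0 and 34.1 on HFD. In both genes every HFD library lay below every chow library, and these were the only 2 of the 31 without overlap, against 3.53% of all genes. For Sel1l the gap was narrow, with 38.0 on HFD next to 38.1 on chow. Its lowest value, 24.3, was in mutant replicate 1 on HFD, the only mutant of the low series of that diet. Without mutant replicate 2 on chow, 19 of 21 ER genes were lower, with a median of -0.20, and without mutant replicates 1 and 2 on chow 9 were lower and 12 higher, with a median of 0.01. The lean thus rested on mutant replicates 1 and 2 on chow. Each had 20 of the 21 ER genes above the gene's own mean, so leaving both out would weaken the lean whatever the cause. Both also have high neutrophil markers, and the part of these cells was not tested. Of the heat shock genes, 5 of 6 were higher on HFD in mutants in the fit of all libraries, with a median of 0.11.

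The interaction asks whether the diet acted differently in the genotypes. It gave 0 of 31 genes past the adjusted threshold of limma, as it gave 0% of all genes, and 2 with an unadjusted p under 0.05, where 4.21% of all genes had one. They were Chac1 (-1.74, SE 0.58, adjusted p of 0.895 in limma) and Pdia6 (-0.57, SE 0.22, adjusted p of 0.895), followed by Trib3 (-1.02, SE 0.52). Chac1 averaged 1.66 ± 0.966 (SD, n = 4) in controls and 3.98 ± 2.32 in mutants on chow, but 4.75 ± 2.78 in controls and 1.96 ± 0.732 in mutants on HFD. The order of the genotypes was therefore opposite on the 2 diets, with overlap on each. Its estimate was -1.24 with the series as a term and -1.49 without mutant replicate 2 on chow, and without mutant replicates 1 and 2 on chow it was -1.15. The chow control mean includes replicate 2, which at 0.222 lay below the other chow controls.

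The remaining integrated stress response genes differed in their libraries. Atf4, the transcription factor of the pathway, averaged 57.6 ± 7.43 (SD, n = 4) in chow controls and 59.7 ± 9.35 in HFD mutants. Ddit3, also called CHOP, was highest in control replicates 1 and 2 and mutant replicate 1 on HFD, at 26.0, 20.6 and 20.7, and lay between 8.21 and 16.3 elsewhere. Asns, which makes asparagine, was at 3.43 and 4.65 in mutant replicates 1 and 2 on chow and between 0.0405 and 1.09 in the other 14 libraries. Those 2 libraries, which hold the high neutrophil markers, also had the highest Sdf2l1, at 44.5 and 36.5.

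A composite site for C/EBP and ATF factors, TGATGNAA on either strand, was found in the windows of 4 of the 28 genes (14.3%), Herpud1, Trib3, Asns and Chac1, against 4.51% of all genes. These genes too were listed by name as stress response genes, so the contrast is not independent support. The stretches of 3 of the 4 genes are shown because they belong to genes that ATF4 is known to drive or, for Herpud1, that ER stress drives. The site is in capitals, and TTGCATCA is its reading on the opposite strand. The Asns site lies inside an annotated GENCODE exon. The Trib3 site lies after the start site and is not shown.
Chac1, chr2:119350992-119351116, plus strand: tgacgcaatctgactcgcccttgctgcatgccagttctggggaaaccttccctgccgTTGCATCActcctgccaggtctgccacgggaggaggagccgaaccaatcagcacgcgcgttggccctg
Herpud1, chr8:94386257-94386384, plus strand: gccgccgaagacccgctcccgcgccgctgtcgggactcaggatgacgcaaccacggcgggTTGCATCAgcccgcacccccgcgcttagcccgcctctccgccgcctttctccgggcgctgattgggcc
Asns, chr6:7693214-7693243, minus strand: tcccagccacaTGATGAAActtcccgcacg

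**Figure D4:**
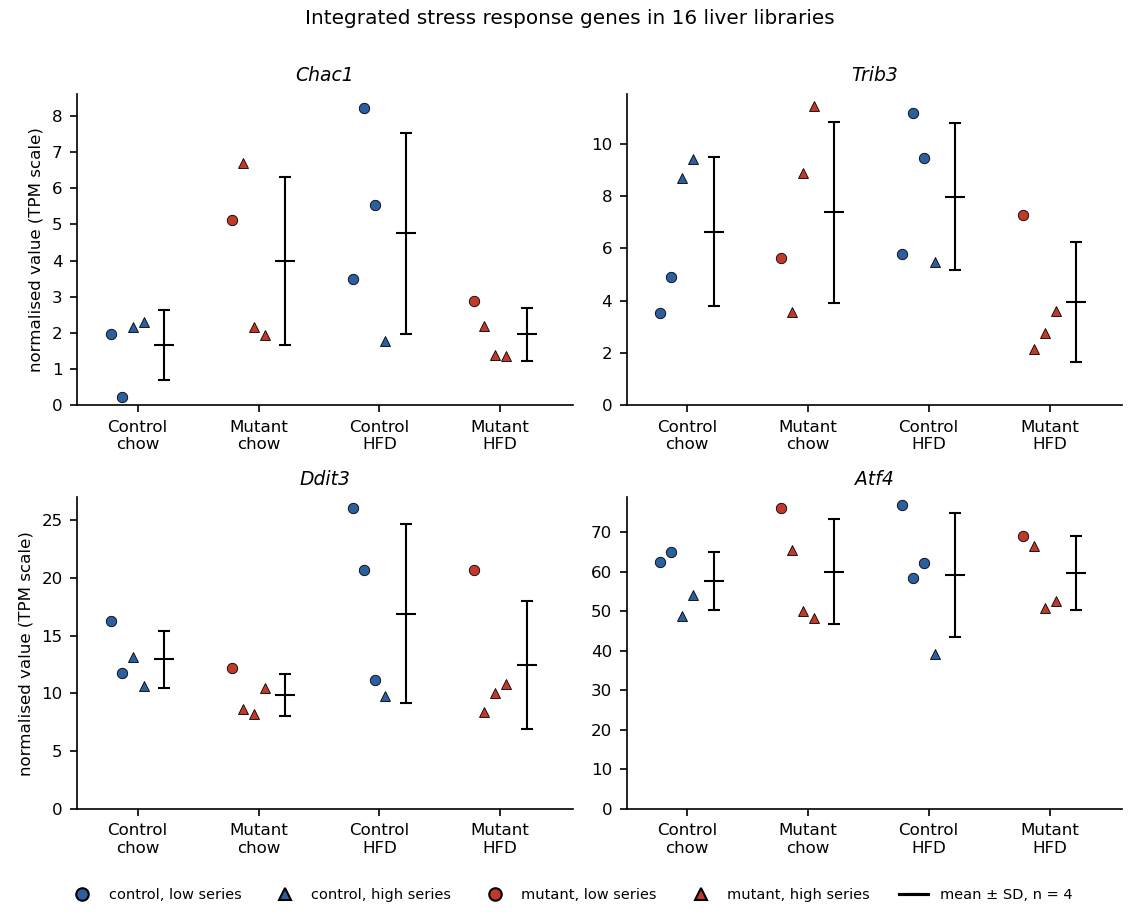
Normalised value on the TPM scale (vertical axes, from 0) of 4 integrated stress response genes in each library of the 4 groups (horizontal axes); points are libraries, circles the low and triangles the high title number series, and bars are the mean ± SD of 4 libraries. Trib3 lies between 2.16 and 3.59 in mutant replicates 2, 3 and 4 on HFD, below every other library of that diet, and Chac1 has its highest value, 8.22, in control replicate 2 on HFD and its next, 6.70, in mutant replicate 2 on chow.

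The title number series on HFD was compared with genotype in the fit, and 10 of 31 genes passed the adjusted threshold of limma between the series, 8 lower and 2 higher in the high series. Of all tested genes 25.2% passed, and an unadjusted p under 0.05 was found in 13 of the 31 against 37.8% of all genes, so that the shares among these genes were near the background. Without overlap between the series were 14 of the 31 genes, 11 lower and 3 higher, against 35.6% of all genes. The median log2 difference was -0.30, against 0.04 over all tested genes.

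Among the ER genes Sec61b, whose level depends in part on how reads were divided, fell by 0.72 on the log2 scale (SE 0.13). The adjusted p was 0.00209 in limma. It was at 223, 201, 173 and 188 in the low series and at 102, 125, 141 and 134 in the high series. Manf was at 203, 171, 126 and 138 in the low series and at 61.2, 75.3, 48.9 and 70.7 in the high series, with a log2 difference of -1.25 (SE 0.28, adjusted p of 0.00589). Creld2 averaged 33.4 ± 8.72 (SD, n = 4) and 13.5 ± 2.60, a difference of -1.18 (SE 0.32, adjusted p of 0.0167), and Syvn1 37.9 ± 7.74 and 22.9 ± 2.91, a difference of -0.59 (SE 0.19, adjusted p of 0.0381). None of these 4 genes overlapped between the series.

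Not all ER genes went that way. Sel1l rose by 0.48 (SE 0.11), with an adjusted p of 0.00597 in limma, from 27.8 ± 4.03 (SD, n = 4) to 36.6 ± 2.14. Atf6 also rose by 0.46 (adjusted p of 0.0477), from 7.95 ± 0.780 to 10.9 ± 0.895. Of the 21 ER genes, 4 fell and 2 rose past the threshold, and the other 15 did not pass.

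Outside the ER, Hspa1b fell by 2.04 (SE 0.51, adjusted p of 0.0122 in limma), from 20.5 ± 8.04 (SD, n = 4) to 3.65 ± 1.23. Ddit3 fell by 0.92 (SE 0.23, adjusted p of 0.0126), from 19.6 ± 6.18 to 9.77 ± 0.994, and Atf4 by 0.51 (SE 0.15, adjusted p of 0.0275), from 66.6 ± 8.08 to 52.2 ± 11.2. Dnajb1 was the remaining gene past the threshold and averaged 14.9 ± 3.37 and 9.55 ± 1.42. The fold changes of Dnajb1 and Atf6 here, of Hspb1 between these series, and of Xbp1 and Hspa8 within a diet lie outside the rule for named genes and were added after the values were seen. The call rests on the libraries that cross genotype and series: without control replicate 4, 0 of 31 genes passed, where 5.65% of all genes did, and without mutant replicate 1, 6 passed, where 14.7% did. The share over all genes fell as well in both cases.

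On chow, where the series hold 3 and 5 libraries, a comparison added after the values had been seen gave 0 of 31 genes past the adjusted threshold of limma, as it gave 0% of all genes. An unadjusted p under 0.05 was found in 9 of 31, 7 lower and 2 higher in the high series, where 11.6% of all genes had one. The groups did not overlap in 3 of 31, Manf, Creld2 and Hyou1, against 6.76% of all genes. Manf averaged 166 ± 37.8 (SD, n = 3) in the low and 84.2 ± 28.3 (n = 5) in the high series, a log2 difference of -1.10 (SE 0.26, adjusted p of 0.180 in limma). Hspa5 averaged 359 ± 44.5 and 239 ± 63.1, a difference of -0.67 (SE 0.22, adjusted p of 0.278). The 2 genes that were higher in the high series were Herpud1 and Trib3. Herpud1 averaged 214 ± 129 and 322 ± 96.6, a log2 difference of 0.78. Trib3 averaged 4.69 ± 1.07 and 8.40 ± 2.92, a difference of 0.68. Fold changes for the rest of the 9 genes are not given here. The chow and HFD series share no library. Manf and Creld2 were lower in the high series of both diets, with the chow differences not past the threshold. Low and high were set within each diet, and both chow series lie between the HFD series in title number. The chow comparison is therefore not a repeat of the HFD one.

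**Figure D5:**
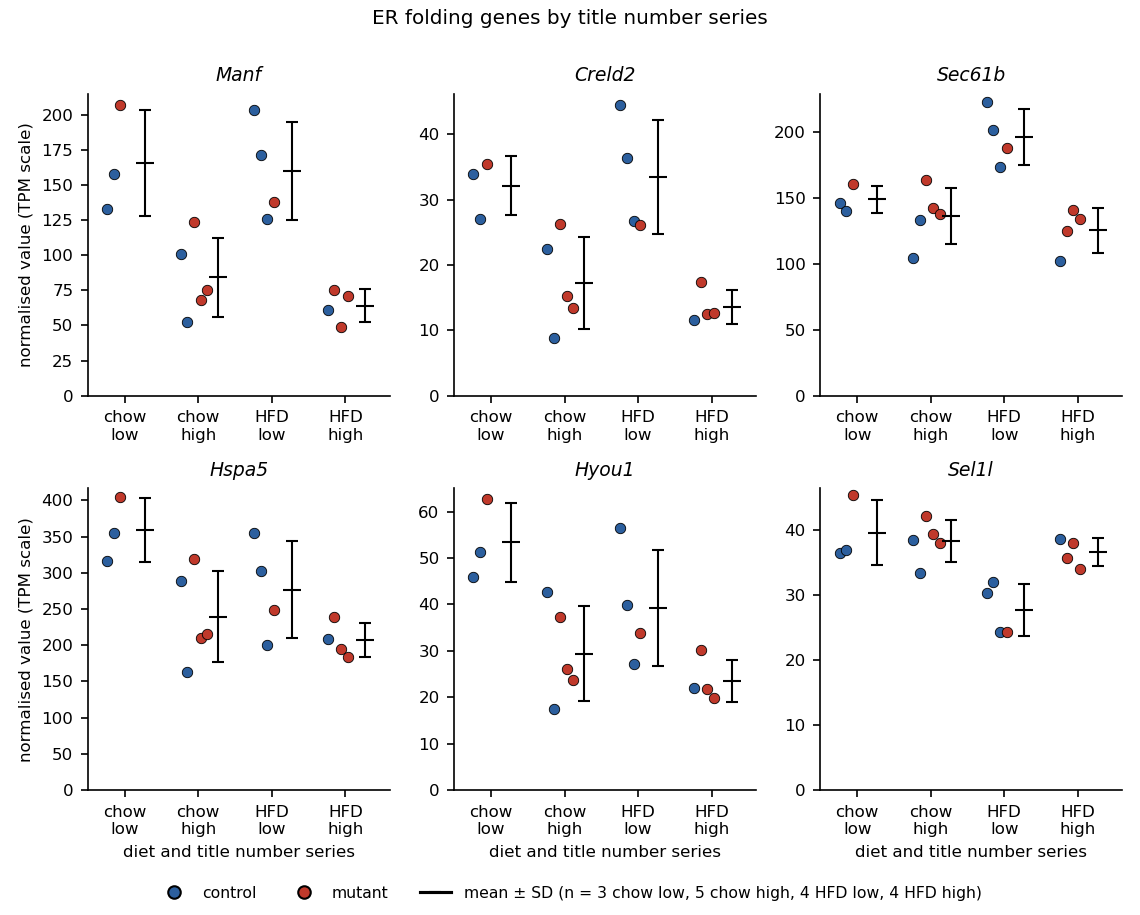
Normalised value on the TPM scale (vertical axes, from 0) of 6 ER genes in the low and high title number series of each diet (horizontal axes); points are libraries coloured by genotype, and bars are the mean ± SD of 3, 5, 4 and 4 libraries. Manf lies between 126 and 203 in the low and between 48.9 and 75.3 in the high series on HFD, with both genotypes in each, and Sel1l goes the other way on HFD.

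The other genes of the same pathways gave few calls between genotypes or diets. Of 30 other ER folding genes, 0 passed the adjusted threshold of limma in any of the 5 group comparisons, and the numbers with an unadjusted p under 0.05 were 1 on chow, 1 on HFD, 4 for the diet in controls and 0 for the diet in mutants and the interaction. Of all genes 6.08%, 8.60%, 12.9%, 6.86% and 4.21% had one in these comparisons, and 4 of 30 is near the background. Fkbp11, a proline isomerase of secretory cells, had the smallest p on chow, with a log2 difference of 0.73 (SE 0.23, adjusted p of 0.678 in limma). Derl3, a degradation channel component, had the smallest in controls between diets, with 1.44 (SE 0.51, adjusted p of 0.280).

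Of 20 tested genes of the wider integrated stress response, 16 were higher in mutants on chow, with a median of 0.14, and 10 were higher on HFD, with a median of -0.02. Of the 25 other heat shock genes, 21 were lower in mutants on chow (median -0.16) and 19 on HFD (median -0.08), and 5 had an unadjusted p under 0.05 on each diet, all of them lower, beside the same 6.08% and 8.60% of all genes. None of the genes in these 2 lists passed the adjusted threshold of limma on either diet. Between the HFD series, 11 of 30 other ER genes, 8 of 25 other heat shock genes and 5 of 20 other integrated stress response genes passed, beside 25.2% of all genes, among them Fkbp2 with a log2 difference of -1.30 (SE 0.17) and Dnaja2 with 0.71 (SE 0.10).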

How the data were processed

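Bulk RNA-seq of liver was analysed in 16 libraries. Each deposited value is a gene-level signal, TPM-like in scale, that the authors made with kallisto on mm10 transcripts and sleuth, whose versions are not given in the sources used here. Column totals differ between libraries, so a size-factor adjustment was inferred from the values, and depth is unknown. Replicates were numbered in accession order.

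Values were taken as log2(value + 1). Genes at 1 or more in at least 4 libraries were fitted with 4 group means in limma (version 3.58.1, R 4.3.3, empirical Bayes with trend), with Benjamini-Hochberg adjustment over 12704 genes. Alternatives were another pseudocount (0.1), filter (5 or none) and scaling, library weights, the number series as a term, and leaving out each library. Within a comparison, fold changes are given for genes with an unadjusted p under 0.05, at most 8, and otherwise for the 3 with the smallest p, with the exceptions named in the text. The genes and lists were chosen with earlier results of these data known. Comparisons that share a group are not independent. Promoter sequences are RefSeq's (GRCm38.p6).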

Additional observations from a re-analysis of the deposited data

Results flagged for a closer look

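In 4 of 132 sets of 4 libraries (33 genes in 4 groups), 1 library lay past Dixon's 95% limit of its group, where chance gives about 1 in 20. Chac1 was at 0.222 in control replicate 2 on chow, below the 1.95 to 2.29 of the other 3 libraries. Hspa1a was at 4.51 in control replicate 3 on chow, against 0.428 to 0.620 in the others, and at 2.42 in control replicate 1 on HFD, against 0.200 to 0.557. Hspa1b was at 42.3 in control replicate 3 on chow, against 7.59 to 11.7, and the split between the near-identical Hspa1a and Hspa1b is uncertain.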

How the results depend on the processing

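With library weights, 10 of the 31 genes passed between genotypes on HFD, 2 between diets in controls and 3 between genotypes over both diets, against 0 in each without weights. Of all genes 30.9%, 17.8% and 8.03% passed with weights, so these counts are near or below the background. Leaving out single libraries gave 0 to 1 genes for diet in controls (1, Sec61b, without control replicate 4 on HFD) and 0 to 9 between the HFD series (0 without control replicate 4, 6 without mutant replicate 1), against 10 with all libraries. For genotype on chow, diet in mutants and the interaction, 0 genes passed under each alternative run. Alternative values were taken for the genes named by rule in each comparison, for Hspb1 between genotypes and for Hsph1 over both diets. Among them 10 passed where the reported value did not, 16 no longer passed and 539 kept their side of the threshold, and none changed sign. Xbp1 on chow, named outside the rule, did, from 0.20 to -0.01 without mutant replicate 2. Counts at an unadjusted p under 0.05 moved by over 1.5 times in 50 cases and by less in 105. The signs of the ER genes on chow and of diet in mutants did not hold without mutant replicates 1 and 2 on chow. The number series could not be used as a term for the diet comparisons. No paired analysis was possible because the labels carry no replicate numbers. Depth is unknown, so low values such as Hspa1a and Asns carry no counting interval.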
